A study of Rattus norvegicus with 19 samples.

Results

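The insulin-like growth factors (IGFs), the proteins that carry them in blood and the receptors that bind them were examined as 9 genes: Igf1, Igf2, Igfbp1, Igfbp2, Igfbp3, Igfbp4, Igfals, Igf1r and Igf2r. They were picked by gene symbol, and all 9 were on the array, with 17 of its 31042 probe sets and 9 of its 14217 named genes. Where a gene had several probe sets, that with the highest mean over all arrays leads. The samples were 19 liver RNA samples of Wistar Han rats (Crl:WI (Han)), each on an Affymetrix Rat230_2 array. The labels place the livers at postnatal day 4 and the dosing with the dams, which took corn oil by gavage from gestation day 6, alone or with DE-71, a brominated flame retardant. The 4 groups were vehicle (5 arrays), 0.1 mg/kg per day (5 arrays), 15 mg/kg per day (4 arrays, numbered 2 to 5) and 50 mg/kg per day (5 arrays). Each array's description carries its own number, of unexplained meaning, and separate animals or litters are not stated. Every test here sets a difference against the spread of these samples, which may be technical. Whether pups or dams gave the livers is not stated and was not tested. Of 5 fetal and neonatal liver markers, Afp read 14.47 to 14.70 and H19 14.44 to 14.57 over all arrays. Igf2 read 13.60 to 14.16, Gpc3 9.01 to 11.05 and Dlk1 6.00 to 9.62. The labels give the sex as female, but the Y-linked transcript Eif2s3y stood at 9.55 to 10.07 and Xist at 3.88 to 4.29 on all arrays.

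In a growing animal IGF1 and IGF2 act through the receptor tyrosine kinase encoded by Igf1r. Liver makes most of the circulating IGF, and in rodents its Igf2 output is high before birth and in the first weeks, while Igf1 rises after birth under growth hormone. In blood the IGFs travel bound to IGF binding proteins, and the complex of IGF with IGFBP3 and the acid-labile subunit (Igfals) is the long-lived store of adult serum. IGFBP1 and IGFBP2 form smaller complexes that turn over faster, and the receptor encoded by Igf2r takes up IGF2 and sends it to lysosomes.

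At 50 mg/kg the carrier Igfbp2 fell, and no other gene of the 9 passed the test against vehicle. All values are log2 signals, and a difference is the mean of the dose group minus that of vehicle, with limma's standard error (SE) and its two-sided p adjusted by Benjamini-Hochberg over all 31042 probe sets, with 0.05 as the threshold. Of the 9 genes 0 rose, 1 fell and 8 did not pass, and 499 of all probe sets passed (1.61%, with 1.22% higher and 0.383% lower). The median difference of the 9 genes was -0.24, against 0.01 for all 14217 genes. Igfbp3 had the largest difference (-0.69), and Igfbp4 the smallest (0.00). The livers were bulk tissue, where fewer cells of a type and less RNA per cell cannot be told apart.

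Some arrays stood apart. Cyp1a1, a monooxygenase gene switched on by the aryl hydrocarbon receptor, read 14.11 to 14.30 at 50 mg/kg, 13.16 to 14.17 at 15 mg/kg and 7.10 to 8.36 in vehicle, but 14.06 on 0.1 mg/kg replicate 1, whose group otherwise read 7.19 to 8.42. Vehicle replicate 2 and 0.1 mg/kg replicate 2 held kidney transcripts (mean of 5 markers 10.47 and 10.48, median of all arrays 4.36) and pancreas transcripts (8 markers, 8.49 and 8.47, median 5.16). Without these 3 arrays the difference at 50 mg/kg was -0.26 for Igf1, -0.18 for Igfbp1, -0.67 for Igfbp3, -0.35 for Igfals and -0.27 for Igf2r, none past the threshold, and the values of the other 4 genes without them stand beside their results. Hepatocyte markers were near the top of the range and even (7 markers, 14.53 to 14.61 on all arrays). By array number, 4 of the 5 arrays at 50 mg/kg were among the 7 early arrays (1 to 8), and each other group had 1 there, the rest being among the 12 late ones (9 to 20). Early and late refer to these numbers only. The cut after array 8 was set here, and no run dates or recorded batches were used. The only early vehicle array was replicate 1, so every early difference from vehicle given below rests on it. That array had the highest skeletal muscle (11.84) and stellate cell and fibroblast (11.46) marker means of all 19 arrays.

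**Figure D1:**
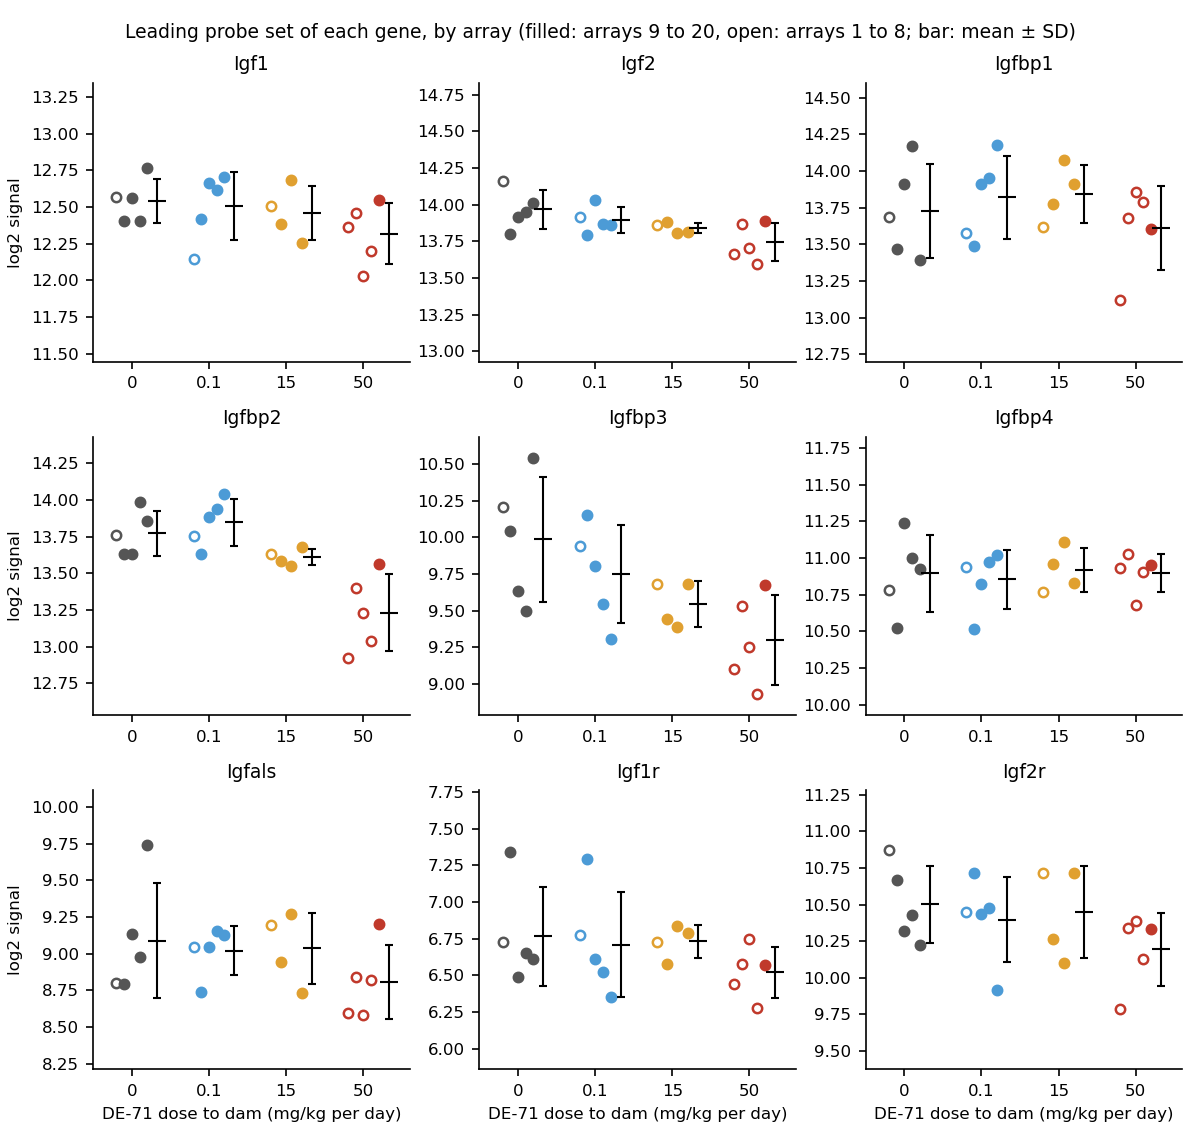
Log2 signal of the leading probe set of each of the 9 genes on each array (vertical axis, a different origin in each panel but the same span), by DE-71 dose in mg/kg per day (horizontal axis). Open points are arrays 1 to 8, filled points arrays 9 to 20, and bars the mean ± SD of 5, 5, 4 and 5 arrays. Igfbp2 at 50 mg/kg (12.92 to 13.57) lies below every vehicle array (13.63 to 13.99), as did 1.48% of all probe sets.

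**Figure D2:**
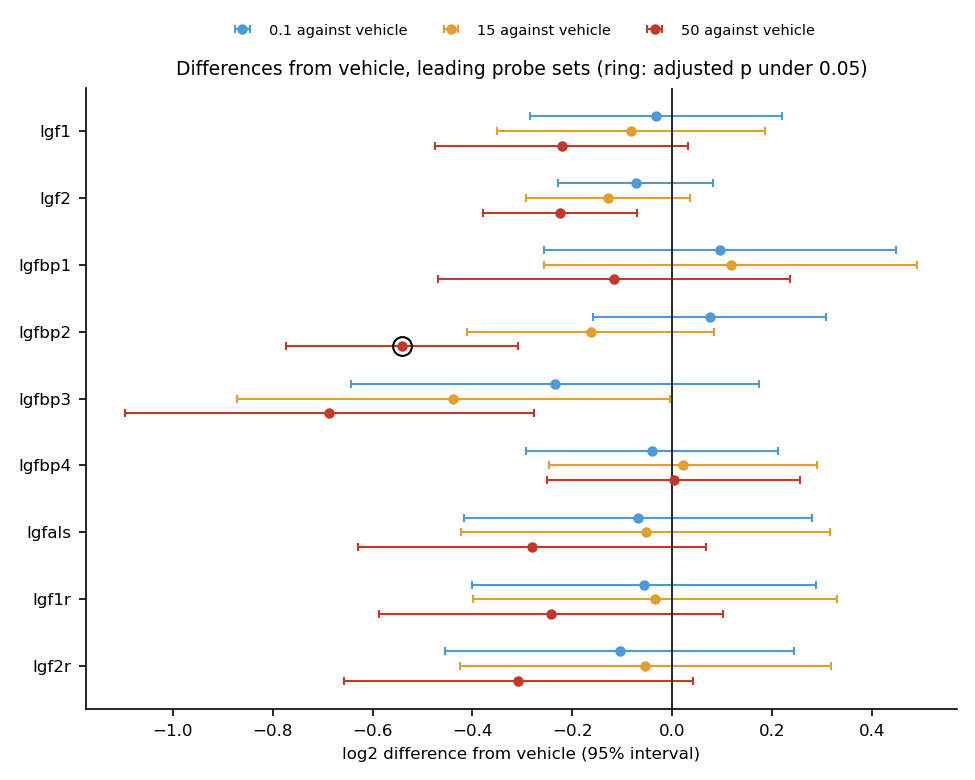
Difference from vehicle in mean log2 signal (horizontal axis) of the 9 genes at each dose, with 95% intervals from limma's fit over 19 arrays. Only Igfbp2 at 50 mg/kg (-0.54) is ringed as past the threshold, and 8 of the 9 points for 50 mg/kg lie to the left of 0.

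Neither ligand passed the test at any dose. Igf2, the fetal growth factor, is transcribed from several promoters in an imprinted region. Its leading probe set (1367571_a_at) read 14.16, 13.80, 13.92, 13.95 and 14.01 in vehicle, in replicate order. It read 13.92, 13.80, 14.03, 13.87 and 13.86 at 0.1 mg/kg, and 13.86, 13.88, 13.80 and 13.81 at 15 mg/kg. At 50 mg/kg the arrays read 13.66, 13.87, 13.70, 13.60 and 13.89. The group means went 13.97, 13.89, 13.84 and 13.74 from vehicle to the highest dose, but the arrays of neighbouring groups overlapped, and so did those of 50 mg/kg and vehicle. The difference at 50 mg/kg was -0.22 (SE 0.0736, limma adjusted p = 0.139), and it was -0.27 without the 3 arrays that stood apart (adjusted p = 0.0973). It lay at -0.46 among the early arrays (4 against 1) and at -0.03 among the late ones (1 against 4). The other 3 Igf2 probe sets, all between 3.77 and 5.18 on every array, differed by -0.01, 0.12 and 0.12, so the gene's probe sets disagree, and these lie near the bottom of the scale, whose lowest value was 2.395.

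Igf1, the growth hormone dependent ligand, had 3 probe sets, and all were lower on average at 50 mg/kg without passing the test. The leading one (1370333_a_at) read 12.57, 12.40, 12.56, 12.41 and 12.76 in vehicle and 12.36, 12.46, 12.03, 12.20 and 12.55 at 50 mg/kg. It read 12.14 to 12.70 at 0.1 mg/kg and 12.26 to 12.68 at 15 mg/kg, so all groups overlapped. Its difference at 50 mg/kg was -0.22 (SE 0.12, 95% interval -0.47 to 0.03, limma adjusted p = 0.393). It was -0.31 within the early arrays (4 against 1) and 0.01 within the late ones (1 against 4), and -0.12 with the part of the array series as a block (adjusted p = 0.76).

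A second Igf1 probe set, 1382599_at, separated the groups more. It read 9.62, 9.42, 9.51, 9.41 and 9.60 in vehicle and 9.08, 9.22, 8.65, 8.80 and 9.28 at 50 mg/kg, where the highest array was below the lowest vehicle array. Of all probe sets, 1.48% were likewise lower at 50 mg/kg with no overlap. The difference was -0.51 (SE 0.145), and its limma adjusted p of 0.0873 missed the threshold. At 15 mg/kg this probe set read 9.47, 9.25, 9.59 and 9.28. At 0.1 mg/kg 4 arrays lay between 9.38 and 9.50, and replicate 1, the array with high Cyp1a1, read 8.69. The third probe set, 1388469_at, differed by -0.35 at 50 mg/kg (SE 0.158, adjusted p = 0.299).

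**Figure D3:**
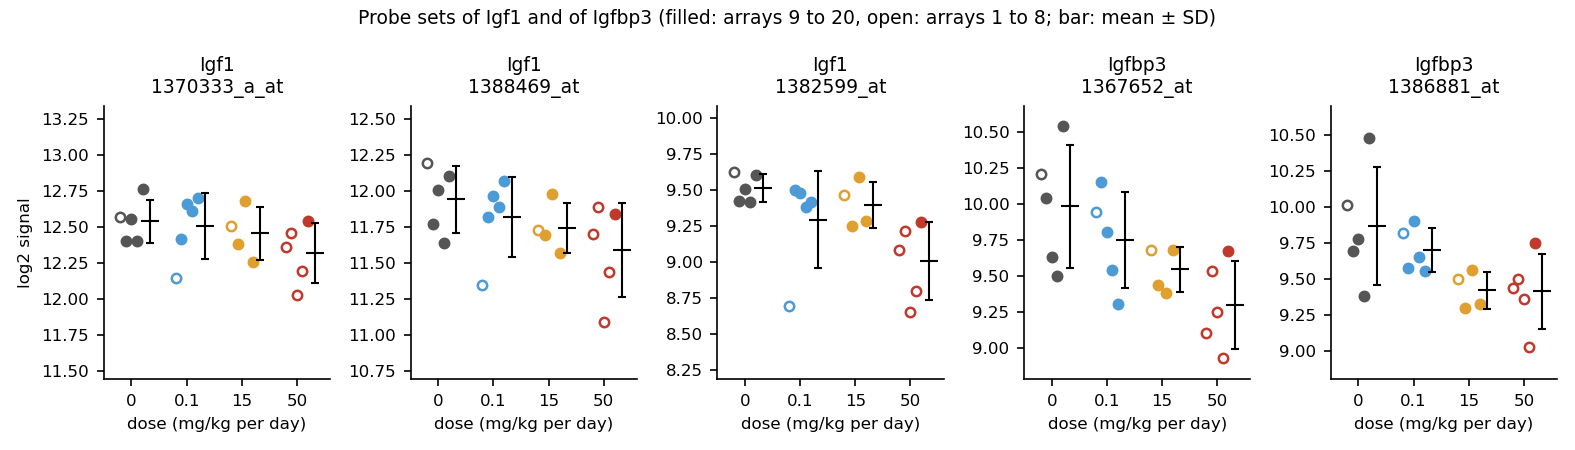
Log2 signal by array for the 3 probe sets of Igf1 and the 2 of Igfbp3, by dose in mg/kg per day, with bars for the mean ± SD (5, 5, 4 and 5 arrays) and open points for arrays 1 to 8. Replicate 1 at 0.1 mg/kg is low on all 3 Igf1 probe sets, and the Igfbp3 probe sets differ in whether 50 mg/kg lies below 15 mg/kg (9.30 and 9.55 in the left panel of that gene, 9.41 and 9.42 in the right).

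Igfbp2, the main IGF carrier of fetal and neonatal rodent serum, was the gene that fell. It read 13.76, 13.63, 13.63, 13.99 and 13.86 in vehicle (13.77 ± 0.15, mean ± SD, n = 5). At 0.1 mg/kg it read 13.75, 13.63, 13.89, 13.94 and 14.04 (13.85 ± 0.16, n = 5). At 15 mg/kg it read 13.63, 13.58, 13.55 and 13.68 (13.61 ± 0.06, n = 4). At 50 mg/kg the arrays read 12.92, 13.40, 13.23, 13.04 and 13.57 (13.23 ± 0.26, n = 5), all of them below every vehicle and every 0.1 mg/kg array. Replicate 5, which lay within the 15 mg/kg range, was the highest of the 5 and the only late array of its group. Of all probe sets, 1.48% were lower at 50 mg/kg with no overlap with vehicle. The share with no overlap with 0.1 mg/kg was not counted.

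The difference of Igfbp2 from vehicle at 50 mg/kg was -0.54 (SE 0.111, 95% interval -0.77 to -0.31), or 1.46-fold lower, with a limma adjusted p of 0.0207. It was -0.58 without the 3 arrays that stood apart (adjusted p = 0.0167). The call was lost when the early or late part of the array series was a block (-0.46, adjusted p = 0.139) and in 6 more of 29 alternatives. Among these were the fits without replicate 1 (0.0622) and without replicate 4 (0.0605) at 50 mg/kg, and those without replicate 4 (0.0565) and without replicate 5 (0.057) of vehicle. In all 29 the difference was below 0, between -0.62 and -0.46. Many of them could not move it, such as those that left out a 0.1 or 15 mg/kg array. The fit of the compared groups alone, the filter at the median level and the trend and robust prior could not either. They changed only its error and adjusted p. Within the early arrays it was -0.61 (4 against 1) and within the late ones -0.21 (1 against 4). The late array at 50 mg/kg read 13.57, beside 13.63 to 13.99 on the 4 late vehicle arrays and 13.55 to 13.68 on the late arrays at 15 mg/kg. As 1 array it gives no spread, and dose within the late arrays was not tested.

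At 15 mg/kg Igfbp2 differed from vehicle by -0.16 (SE 0.118, limma adjusted p = 0.637) and at 0.1 mg/kg by 0.08 (adjusted p = 1.00). The difference of 50 from 15 mg/kg, tested directly, was -0.38 (SE 0.118, adjusted p = 0.465). In limma's F test over the 4 dose groups, which 0.325% of all probe sets passed, Igfbp2 was the only one of the 9 genes to pass (adjusted p = 0.0458). That call held in 9 of 28 alternatives (0.0167 to 0.334).

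Igfbp3, the carrier of the long-lived serum complex, is made in rat liver mainly by cells other than hepatocytes. Its leading probe set (1367652_at) read 10.21, 10.05, 9.63, 9.50 and 10.54 in vehicle, the widest spread of the 4 groups. It read 9.94, 10.16, 9.81, 9.55 and 9.31 at 0.1 mg/kg, and 9.68, 9.44, 9.39 and 9.69 at 15 mg/kg. At 50 mg/kg it read 9.11, 9.54, 9.25, 8.93 and 9.68. The group means were 9.99, 9.75, 9.55 and 9.30 from vehicle to the highest dose, and every pair of groups overlapped. Vehicle replicates 1, 2 and 5, the highest of their group, held other tissues' transcripts. Skeletal muscle markers averaged 11.84 and 9.64 on replicates 1 and 5 (median of all arrays 5.35), and kidney markers 10.47 on replicate 2. Vehicle replicates 3 and 4 lay within the 15 mg/kg range, and replicate 4 held pancreas transcripts (7.23). At 50 mg/kg replicates 2 and 3 held muscle transcripts too (10.33 and 9.78). The part of this RNA was not tested.

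The difference of Igfbp3 at 50 mg/kg was -0.69 (SE 0.195, 95% interval -1.10 to -0.28), and its limma adjusted p of 0.0854 missed the threshold, as it did in all 29 alternatives (0.0524 to 0.218). At 15 mg/kg it was -0.44 (SE 0.206, adjusted p = 0.50). Within the early arrays the difference at 50 mg/kg was -1.004 (4 against 1, vehicle replicate 1) and within the late ones -0.26 (1 against 4). With muscle and pancreas levels as covariates it was -0.59 over all arrays (limma adjusted p = 0.142). The second probe set, 1386881_at, differed by -0.45 at 50 mg/kg (SE 0.161, adjusted p = 0.176) and by -0.45 at 15 mg/kg (adjusted p = 0.449), so the 2 probe sets differ on whether the higher dose lay lower. Markers of cells other than hepatocytes varied too. Of the 3 neutrophil markers, Camp, an antimicrobial granule protein, fell at 50 mg/kg (-0.94, SE 0.229, limma adjusted p = 0.0457), and S100a9 (-0.48) and S100a8 (-0.57) did not pass. Their mean was 11.76 to 12.63 in vehicle and 11.30 to 12.05 at 50 mg/kg. Of 6 erythroid markers 0 passed, with all 6 differences below 0 (median -0.32) and means of 9.52 to 11.45 in vehicle and 9.48 to 11.45 at 50 mg/kg. The 7 stellate cell and fibroblast markers averaged 8.95 to 11.46 in vehicle, 8.88 to 9.93 at 0.1 mg/kg, 8.56 to 10.43 at 15 mg/kg and 8.68 to 10.53 at 50 mg/kg. The 5 Kupffer cell and macrophage markers averaged 9.68 to 10.44 in vehicle and 9.63 to 9.99 at 50 mg/kg, and the 5 endothelial ones 9.76 to 10.32 and 9.77 to 10.20. Their part in the Igfbp3 values was not tested.

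Igfbp1, the carrier that liver makes in fasting and stress and that insulin suppresses, showed no difference past the threshold. It read 13.69, 13.46, 13.91, 14.17 and 13.39 in vehicle and 13.12, 13.68, 13.86, 13.79 and 13.61 at 50 mg/kg. It read 13.49 to 14.18 at 0.1 mg/kg and 13.61 to 14.07 at 15 mg/kg, and all groups overlapped. The difference at 50 mg/kg was -0.12 (SE 0.168, 95% interval -0.47 to 0.24, limma adjusted p = 0.776), and it was 0.01 without 50 mg/kg replicate 1, -0.0045 without vehicle replicate 4 and -0.02 with the part of the array series as a block.

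Igfbp4, a carrier that holds IGFs away from their receptor until it is cleaved, had nearly equal means in the 4 groups (10.89, 10.85, 10.92 and 10.90). Its arrays ranged from 10.52 to 11.24 in vehicle, 10.52 to 11.02 at 0.1 mg/kg, 10.77 to 11.11 at 15 mg/kg and 10.68 to 11.03 at 50 mg/kg. The difference at 50 mg/kg was 0.00 (SE 0.12, 95% interval -0.25 to 0.26, adjusted p = 0.994). The lowest array of each of the vehicle and 0.1 mg/kg groups was replicate 2, which held kidney and pancreas transcripts, and without the 3 arrays that stood apart the difference was -0.09 (adjusted p = 0.727).

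Igfals encodes the acid-labile subunit, which growth hormone induces in hepatocytes after birth. It read 8.80, 8.79, 9.13, 8.97 and 9.74 in vehicle and 8.60, 8.84, 8.58, 8.82 and 9.20 at 50 mg/kg. Vehicle replicate 5 was the highest of all 19 arrays, and replicate 5 was also the highest at 50 mg/kg. The difference was -0.28 (SE 0.166, 95% interval -0.63 to 0.07, limma adjusted p = 0.433). Without vehicle replicate 5 it was -0.12 (adjusted p = 0.733), and it was -0.09 within the early arrays (4 against 1) and 0.04 within the late ones (1 against 4). The means at 0.1 and 15 mg/kg were 9.02 and 9.04, beside 9.09 in vehicle.

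The receptors did not pass either. Igf1r, which adult hepatocytes express little of, read 6.73, 7.34, 6.49, 6.66 and 6.61 in vehicle and 6.44, 6.58, 6.75, 6.28 and 6.57 at 50 mg/kg. At 0.1 mg/kg it read 6.77, 7.29, 6.61, 6.52 and 6.35, and at 15 mg/kg 6.73, 6.58, 6.83 and 6.79. The 2 highest of the 19 arrays, 7.34 and 7.29, were the arrays with kidney and pancreas transcripts. The difference at 50 mg/kg was -0.24 (SE 0.164, limma adjusted p = 0.50), and -0.10 without the 3 arrays that stood apart (adjusted p = 0.674). The second probe set, 1392492_at, showed the same 2 arrays on top (7.32 and 7.41, group means 5.67 to 6.25) and differed by -0.58 (adjusted p = 0.431).

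Igf2r, the mannose 6-phosphate receptor that clears IGF2, read 10.87, 10.67, 10.32, 10.43 and 10.22 in vehicle and 9.78, 10.34, 10.39, 10.13 and 10.33 at 50 mg/kg on its leading probe set (1386872_at). The groups overlapped, and 50 mg/kg replicate 1 was the lowest of all arrays. The difference was -0.31 (SE 0.166, limma adjusted p = 0.389), at -0.71 within the early arrays and -0.08 within the late ones. The other probe set, 1367636_at, differed by -0.10 (adjusted p = 0.665).

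At the lower doses 0 of the 9 genes passed, and 0 of all 31042 probe sets did (0%) at 15 mg/kg, at 0.1 mg/kg and for 50 against 15 mg/kg. At an unadjusted p under 0.05 limma gave 3083, 763 and 2417 probe sets for these comparisons, and 1, 0 and 1 of the 9 genes: Igfbp3 at 15 mg/kg and Igfbp2 for 50 against 15 mg/kg. The median difference of the 9 genes was -0.05 at 15 mg/kg, -0.06 at 0.1 mg/kg and -0.23 for 50 against 15 mg/kg. The comparisons with vehicle share the vehicle arrays.

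Promoters are shown for Igfbp2 and Igfbp3, the carriers with the largest differences, and for Igfbp1, the next named gene to Igfbp3 on chromosome 14. Each is RefSeq sequence of the rat build GRCr8, 250 bases before to 50 after the annotated start, read 5′ to 3′ on the gene's strand. Capitals mark GCGTG, the core of the site bound by the aryl hydrocarbon receptor, on either strand, and GGGCGG, the GC box, in Igfbp2 (chr9:81864561-81864860, plus strand) and Igfbp3 (chr14:86277895-86278194, minus strand). In Igfbp1 (chr14:86261027-86261326, plus strand) they mark CAAAANA, a FoxO-like motif, on either strand.
Igfbp2: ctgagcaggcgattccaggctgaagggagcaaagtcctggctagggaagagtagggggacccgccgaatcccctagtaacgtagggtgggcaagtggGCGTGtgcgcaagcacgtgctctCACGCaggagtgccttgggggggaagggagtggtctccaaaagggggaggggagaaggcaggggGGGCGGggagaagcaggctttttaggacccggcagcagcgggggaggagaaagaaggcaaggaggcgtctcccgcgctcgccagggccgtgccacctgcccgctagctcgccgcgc
Igfbp3: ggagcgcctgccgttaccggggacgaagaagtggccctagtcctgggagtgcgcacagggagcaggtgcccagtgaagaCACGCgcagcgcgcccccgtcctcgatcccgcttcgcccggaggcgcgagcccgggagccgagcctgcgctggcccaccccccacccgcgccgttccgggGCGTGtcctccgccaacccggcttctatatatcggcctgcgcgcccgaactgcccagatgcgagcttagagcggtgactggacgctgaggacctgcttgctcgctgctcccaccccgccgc
Igfbp1: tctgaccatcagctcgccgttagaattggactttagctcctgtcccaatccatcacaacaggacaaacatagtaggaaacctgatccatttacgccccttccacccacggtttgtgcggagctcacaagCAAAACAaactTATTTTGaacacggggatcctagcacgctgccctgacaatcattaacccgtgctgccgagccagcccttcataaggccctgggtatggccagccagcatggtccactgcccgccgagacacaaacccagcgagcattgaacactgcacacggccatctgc
The Igfbp2 window held 2 GCGTG matches and 1 GC box, and the Igfbp3 window 2 GCGTG matches and 0 GC boxes. The Igfbp1 window held 2 CAAAANA matches and 1 GCGTG match. Such matches are common: of 33469 windows of the same length, 29.7% held GCGTG, 33.1% GGGCGG and 19.5% CAAAANA on either strand. The 9 genes had 10 windows, Igf2 having 2, and GCGTG was in 5 of them, of the genes Igf2, Igfbp1, Igfbp2, Igfbp3 and Igf1r. TTCNNNGAA, a STAT5-like motif, was in 0 of the 10 and in 8.87% of all windows. TATAAA, the TATA box, was in 1 of the 10, that of Igfbp4, and in 14.2% of all windows. Motifs in capitals do not overlap each other. A match is a run of letters and does not show binding.

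Genes around the IGF system were read from 5 lists. Of 11 genes that govern IGF availability 0 rose and 0 fell at 50 mg/kg, with a median difference of -0.25. The 4 largest were Igfbp5, a carrier and the next named gene to Igfbp2 on chromosome 9 (-0.86, SE 0.473, adjusted p = 0.40), Mmp2, a matrix protease (-0.85, SE 0.291, adjusted p = 0.156), Igfbp7 (-0.46, adjusted p = 0.471) and Stc1, an inhibitor of the IGFBP protease PAPP-A (-0.45, adjusted p = 0.609). Igfbp5 spread widely in vehicle (6.99 to 9.65) and little at 50 mg/kg (6.95 to 7.56). Matrix genes such as Mmp2 are made by the stellate cells and fibroblasts whose markers are given above, and their part was not tested.

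Of 18 genes of the growth hormone axis 0 rose, 1 fell and 17 did not pass at 50 mg/kg (median -0.07). Prlr, the prolactin receptor, which signals through STAT5 as the growth hormone receptor does, was the gene that fell. It read 9.09, 8.78, 9.09, 8.76 and 10.25 in vehicle and 8.19, 8.23, 7.41, 8.07 and 8.08 at 50 mg/kg. The groups did not overlap (1.48% of all probe sets were lower with no overlap), and its difference was -1.20 (SE 0.272, limma adjusted p = 0.0342). The Prlr call held in 18 of 28 alternatives (0.014 to 0.19). It was lost with the part of the array series as a block (-1.01, adjusted p = 0.19), also when the 3 arrays that stood apart were left out of that fit (-1.24, adjusted p = 0.0684), and in the fit of the compared groups alone (adjusted p = 0.0662). It was lost too without any 1 of the 5 arrays at 50 mg/kg or without vehicle replicate 1 or 5, and without vehicle replicate 5 the difference was -0.93 (adjusted p = 0.0714). Stat5b (0.42, adjusted p = 0.0724), Cebpb (0.47, adjusted p = 0.121), Onecut1 (-0.64, adjusted p = 0.34) and Stat3 (-0.54, adjusted p = 0.33) did not pass, nor did Ghr, the growth hormone receptor (-0.28, adjusted p = 0.506).

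Of 28 genes listed for insulin and IGF receptor signalling 0 rose and 0 fell (median -0.04). Insr, the insulin receptor and closest relative of Igf1r, read 8.02, 7.40, 8.13, 8.13 and 7.99 in vehicle and 8.57, 8.28, 8.48, 8.45 and 8.36 at 50 mg/kg. The groups did not overlap (3.21% of all probe sets were higher with no overlap), and the difference of 0.50 (SE 0.143) missed the threshold (adjusted p = 0.0911). The lowest vehicle array was replicate 2, which held kidney and pancreas transcripts. Trib3 (0.59, adjusted p = 0.672) and Irs1 (0.54, adjusted p = 0.376) did not pass. Neither did Pdk1 (0.51, adjusted p = 0.0842), a listed gene that encodes a pyruvate dehydrogenase kinase, not the signalling kinase of Pdpk1.

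Of 13 genes that bind Igf2 mRNA or are imprinted growth genes 0 rose and 0 fell (median -0.05). Cdkn1c, an imprinted cell cycle inhibitor (-1.13, SE 0.665, adjusted p = 0.431), and Plagl1 (-0.75, adjusted p = 0.541) had the largest differences and wide errors. Igf2bp2, an Igf2 mRNA binding protein, differed by -0.53 (SE 0.179, adjusted p = 0.15) and Ndn by -0.42 (adjusted p = 0.497). H19, the imprinted neighbour of Igf2, differed by 0.00 (SE 0.0473, adjusted p = 0.994). Of 15 genes of the starvation and stress response that accompanies Igfbp1 induction 0 rose and 0 fell (median -0.22), the largest being Chac1 (-1.23, SE 0.559, adjusted p = 0.302), Fgf21 (-1.07, adjusted p = 0.514), Ppargc1a (-0.58, adjusted p = 0.152) and Tat (0.48, adjusted p = 0.706). At 15 and 0.1 mg/kg 0 genes passed in any of the 5 lists.

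The 9 genes varied together to different degrees from array to array. Of their 36 pairs, 26 had a Pearson r above 0 over the 19 arrays (median 0.345), and 6 passed a two-sided permutation test with 100000 resamples, adjusted over the 36 pairs. With Spearman's rho 2 passed, and 4 passed on deviations from the dose group means, which take out the differences between groups. Only 2 of these 4 were among the 6, Igf1 with Igfals and Igfbp4 with Igf1r. The others were Igfbp1 with Igfbp3 and Igfbp4 with Igf2r. The last had -0.634 on deviations (adjusted p = 0.038), but -0.566 on log2 signals (adjusted p = 0.0514). Both genes of a pair are read on the same arrays, so they share their RNA, dissection and hybridization.

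Igf1 and Igfals, which both respond to growth hormone, were the pair that passed in each reading tested. Their r was 0.707 (permutation p = 0.00053, adjusted p = 0.00954) and rho 0.728 (adjusted p = 0.0223). The r was 0.764 without the 2 arrays farthest from the median of Igf1, 0.830 within the 12 late arrays, 0.650 on deviations from the dose means (adjusted p = 0.038) and 0.789 without the 3 arrays that stood apart. It passed with each of the 19 arrays left out.

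Igf2 and Igfbp2 had r = 0.734 (permutation p = 0.00037, adjusted p = 0.00954) and rho = 0.60 (adjusted p = 0.0707). The r was 0.751 without the 2 farthest arrays, 0.475 within the late arrays and 0.579 on deviations from the dose means (adjusted p = 0.0675). Igf2 and Igfbp3 had r = 0.687 (adjusted p = 0.0101), which was 0.240 within the late arrays and 0.445 on deviations. Igf1r and Igf2r had r = 0.625 (adjusted p = 0.0279), which passed for 15 of the 19 arrays when each was left out, but missed the threshold with rho (0.602, adjusted p = 0.0707), on deviations from the dose means (0.557, adjusted p = 0.0728) and without the 3 arrays that stood apart (0.605, adjusted p = 0.0784). Igfbp3 and Igf2r had r = 0.597 (adjusted p = 0.0417), which passed for 9 of the 19 arrays when each was left out in turn. Their rho passed (0.663, adjusted p = 0.0414), and r was 0.812 without the 2 arrays farthest from the median of Igfbp3. It missed the threshold on deviations from the dose means (0.512, adjusted p = 0.114) and without the 3 arrays that stood apart (0.519, adjusted p = 0.112).

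Igfbp4 and Igf1r ran opposite, with r = -0.719 (adjusted p = 0.0101), but the relation rests on the 2 arrays with kidney and pancreas transcripts. It was -0.309 without the 2 arrays farthest from the median of Igfbp4 and -0.323 without the 3 arrays that stood apart (adjusted p = 0.382). Igfbp1 and Igfbp3, neighbours on the chromosome, had r = -0.340 (adjusted p = 0.242). On deviations from the dose means they had -0.630 (adjusted p = 0.038) and within the late arrays -0.852, but -0.202 without the 3 arrays that stood apart.

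**Figure D4:**
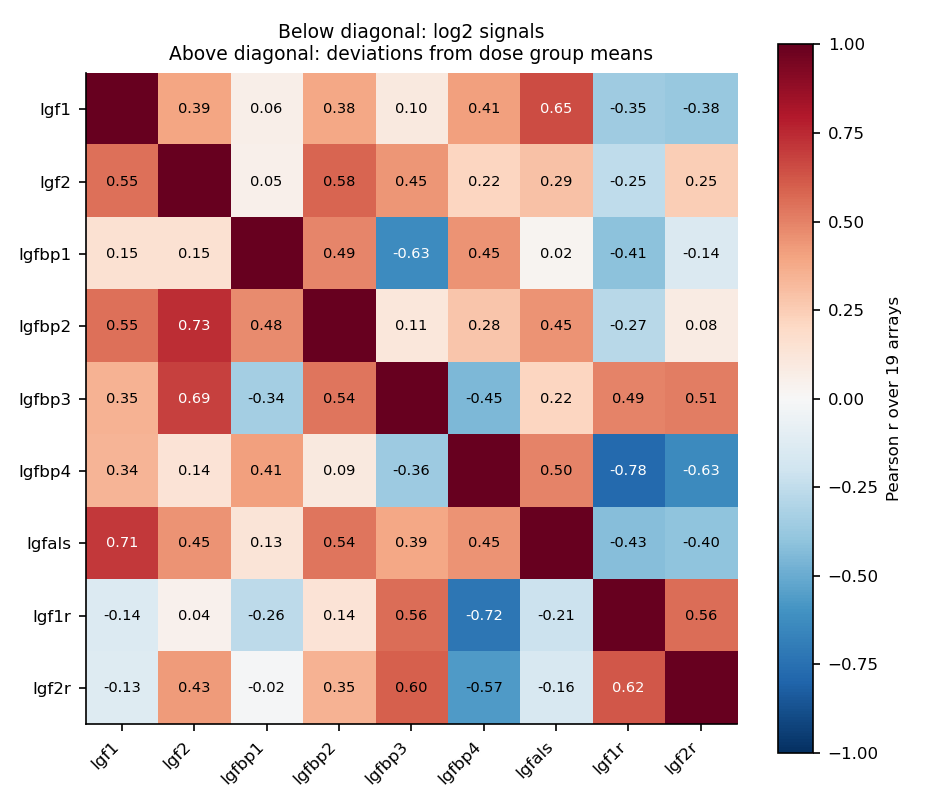
Pearson r of each pair of the 9 genes over 19 arrays, with log2 signals below the diagonal and deviations from the dose group means above it (colour scale from -1 to 1). Igf1 with Igfals is 0.71 below and 0.65 above, and Igfbp4 with Igf1r is -0.72 below and -0.78 above.

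The genes most like Igfbp2 across the 19 arrays were Mfge8, Gpld1 and Ambp, which encode secreted proteins. Mfge8, a milk fat globule protein that bridges phagocytes to dying cells, had r = 0.972 and rho = 0.932, and r = 0.923 on deviations from the dose means and 0.936 within the late arrays. Gpld1, a phospholipase of serum, had r = 0.930 and rho = 0.877, with 0.815 on deviations. Ambp, the precursor of alpha-1-microglobulin and bikunin, had r = 0.898 and rho = 0.774, with 0.812 on deviations. These are the highest of all genes and were picked for it, so they are given as a description.

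Mfge8 read 10.43, 10.19, 10.21, 10.60 and 10.31 in vehicle and 9.57, 10.01, 9.84, 9.68 and 10.10 at 50 mg/kg. At 50 mg/kg its 5 arrays ranked as those of Igfbp2 did. Mfge8, Gpld1 and Ambp were picked for their r with Igfbp2 over all dose groups. Their ranks and differences at 50 mg/kg follow in part from that choice and are no separate evidence. Its difference was -0.51 (SE 0.104, limma adjusted p = 0.0203), and that of Gpld1 -0.80 (SE 0.154, adjusted p = 0.014), while that of Ambp was -0.12 (SE 0.0539, adjusted p = 0.286). Gpld1 overlapped between the groups through 50 mg/kg replicate 5 (9.98), the late array, and its 4 early arrays there read 9.03 to 9.46 beside 9.97 to 10.46 in vehicle. With the part of the array series as a block neither passed (Mfge8 -0.48, adjusted p = 0.112, Gpld1 -0.62, adjusted p = 0.11).

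**Figure D5:**
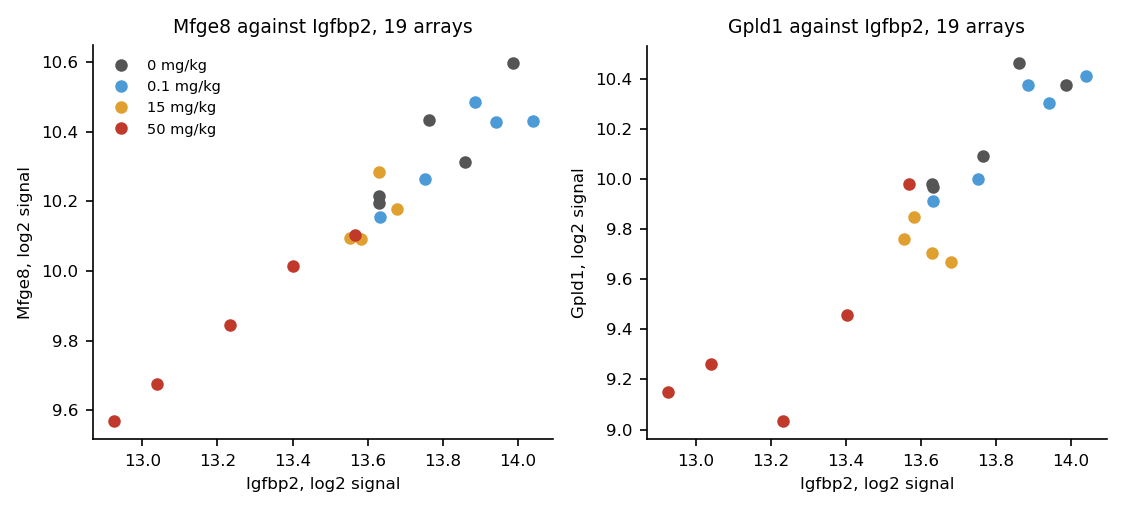
Log2 signals of Mfge8 (left) and Gpld1 (right) against Igfbp2 on the 19 arrays, coloured by dose. The 5 arrays at 50 mg/kg lie at the low end of Igfbp2 (12.92 to 13.57), and the points follow a line in the left panel (r = 0.972) more closely than in the right (0.930).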

How the data were processed

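Liver RNA of 19 samples was measured on 1-colour Affymetrix Rat230_2 arrays. The values deposited by the authors are log2 signals made with robust multi-array average (RMA), per the submitters' processing notes, version not given in the sources used here. Folds near the ends of its range are compressed. Array medians lay between 6.05 and 6.16, and the number of arrays limits the precision.

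Of 31099 probe sets 57 controls were left out. The platform annotation gave 20826 of the rest 1 gene symbol, 436 several and 9780 none, and the last 2 kinds named no gene. The submitters used R/maanova, which was not used here. One mean per dose group was fitted over all 19 arrays with limma 3.58.1 in R 4.3.3 (15 residual and 2.78 prior degrees of freedom). On simulated data for 50 mg/kg against vehicle, the fit over 31042 probe sets recovered 46.3%, 85.1% and 93.9% of those moved by 0.5, 1 and 2, with 6.25% false calls. The simulated noise was independent between probe sets, with no effect of early or late arrays or of other tissues. These rates may therefore differ from those of the real arrays. Pearson and Spearman correlations were computed with Python 3.11.15, numpy 2.4.6, pandas 2.3.3 and scipy 1.17.1. The genes named beside the 9 were the list members past the threshold, up to 4 more per list by size at 50 mg/kg, and the 3 genes with the highest r with a called gene. Ghr, H19 and the check genes were chosen after their values were seen. The 9 genes and the lists were chosen with earlier results of these data known. The alternatives were a replicate block, the part of the array series (early or late) as a block, fits of the compared groups alone, other tissues' levels as covariates, a filter at the median level, a trend and robust prior, cyclic loess, the mean of a gene's probe sets and each array left out. The fits without the 3 arrays that stood apart were chosen after seeing the data.

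Replicate numbers were checked as pairs across groups: of 27 same-numbered pairs of arrays, 11 correlated above 0.1 in their deviations from the group means (-0.534 to 0.889), so the numbers were not taken to pair samples.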

Additional observations from a re-analysis of the deposited data

Results flagged for a closer look

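Of 68 sets of 4 or 5 arrays (each probe set in each dose group), 5 held an array that stood far from the others of its set by Dixon's test, and chance gives about 1 in 20. On 1382599_at of Igf1, 0.1 mg/kg replicate 1 was the lowest at 8.69, with the nearest array at 9.38, and this is the array with high Cyp1a1 for its group. The other 4 were on the 2 arrays with kidney and pancreas transcripts. For Igf1r, vehicle replicate 2 was the highest on 1368123_at at 7.34 (nearest 6.73), and 0.1 mg/kg replicate 2 the highest on 1392492_at at 7.41 (nearest 5.91). On 1371206_a_at of Igf2, a probe set near the bottom of the scale, vehicle replicate 2 was the lowest at 4.81 (nearest 4.96). For Igfals, 0.1 mg/kg replicate 2 was the lowest at 8.74 (nearest 9.04). The part of the other tissues' RNA in these values was not tested.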

How the results depend on the processing

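At 50 mg/kg 499 probe sets passed. The count was 57 with the part of the array series (early or late) as a block, 286 with muscle and pancreas levels as covariates, 216 with that block and without the 3 arrays that stood apart, and 178 to 704 with 1 array left out. At 15 mg/kg 0 passed, and 2 did in a fit of the compared groups alone, 7 with the block of early and late arrays, 12 with muscle and pancreas levels, 4 with the filter at the median level, 10 without the 3 arrays, 14 with that block as well, and 0 to 11 with 1 array left out. Over the 4 dose groups 101 passed, against 17 with the block, 178 with the filter, 267 without the 3 arrays, 60 with the block as well, and 46 to 270 with 1 array left out. Of the 36 pairs 6 passed, against 3 within arrays 9 to 20, 11 with cyclic loess, 3 without the 3 arrays, and 2 to 12 with 1 array left out. The cause of these moves was not tested.

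The replicate block gave 511 probe sets at 50 mg/kg and 114 over the 4 dose groups, and it changed no call of the 9 genes. Of 19 arrays 6 correlated best with their own replicate number. The 8 genes other than Igfbp2 missed the threshold at 50 mg/kg in all 29 alternatives. Igf2 (0.00 with the mean of its 4 probe sets), Igfbp1 and Igfbp4 were those whose difference changed sign in at least 1 of them. Igfbp2 also lost its call in the fit of vehicle and 50 mg/kg alone (adjusted p = 0.0703) and in the fit that had the part of the series as a block and left out the 3 arrays (0.0891). Mfge8 and Gpld1, picked for their r with Igfbp2, passed in 21 and 24 of 28 alternatives.

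Group sizes of 4 and 5, and the placing of 4 of the 5 arrays at 50 mg/kg among the early ones, limit what these comparisons show. Within either part of the arrays that contrast has 1 array on a side. Changes of 0.5 were recovered in 46.3% of cases in the simulation, which had no effect of early or late arrays or of other tissues.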

Other observations

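Other tissues' transcripts also appeared on arrays other than those that stood apart, and some calls given above were lost without certain of these arrays. The mean of 8 skeletal muscle markers had a median of 5.35 over the 19 arrays, and reached 11.84 on vehicle replicate 1, 9.64 on vehicle replicate 5, 10.33 on 50 mg/kg replicate 2 and 9.78 on 50 mg/kg replicate 3. Pancreas markers also read 7.23 on vehicle replicate 4 and 7.88 on 15 mg/kg replicate 5, and kidney markers 7.43 on 50 mg/kg replicate 3. With muscle and pancreas levels as covariates the difference of Igfbp2 at 50 mg/kg was -0.56 (limma adjusted p = 0.0379) and its call held. Other genes moved by over 1.5 times with these covariates, though none passed in either fit: Igf1r went from -0.24 to -0.04, Igf2r from -0.31 to -0.18, Igfals from -0.28 to -0.43, and Igfbp4 from 0.00 to -0.13. The Igfbp2 call was lost without vehicle replicate 4 or 5. It held without vehicle replicate 1 (limma adjusted p = 0.0458) and without 50 mg/kg replicate 2 (0.0245) or 3 (0.0407). It was also lost without 50 mg/kg replicate 1 or 4, whose muscle marker means were 5.35 and 4.79. The Prlr call was lost without vehicle replicate 1 or 5, and without any 1 of the 5 arrays at 50 mg/kg. The part of the other tissues' RNA in these calls was not tested. Vehicle replicate 2 and 0.1 mg/kg replicate 2, of different groups, had the highest correlation of any 2 arrays over all probe sets (0.9986, lowest 0.966). Their deviations from the group means correlated at 0.889. Whether they come from separate samples was not tested. All tests that keep both, including those of 0.1 mg/kg against vehicle and of pairs, count them as separate.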
